A study of Homo sapiens with 4 samples.

Results

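The genes described here handle heme and iron: HMOX1, HMOX2, FTH1, FTL, TFRC, IREB2, ACO1, BACH1, FECH and BLVRB. They were taken by gene symbol, and where a symbol had several RefSeq transcript records, the record with the highest mean count over the 4 libraries stood for the gene. All 10 of 10 were in the table, among 11415 gene symbols, and all 10 passed the filter on low counts. RNA was sequenced from TK6, a human lymphoblastoid cell line that is heterozygous at the thymidine kinase locus and that both groups share. Cells were seeded at 200000 cells per ml in high aspect ratio vessel bioreactors and grown for 48 hours, either rotated at 12 rpm (simulated microgravity, 2 libraries) or in a bioreactor that was not rotated (static control, 2 libraries). The comparison asks which transcripts differ in abundance between rotated and static cultures. TK6 is 1 line, and the sources used here do not say whether the 2 libraries of a group came from separate cultures, so the p-values cover only the variation among these 4 libraries, which may be technical.

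Heme oxygenases open the heme ring and release iron, carbon monoxide and biliverdin, which biliverdin reductases turn into bilirubin. Iron is stored inside the ferritin shell of heavy (FTH1) and light (FTL) chains. Most cells take up iron bound to transferrin through the transferrin receptor (TFRC). Iron regulatory proteins bind hairpins called iron-responsive elements in ferritin and transferrin receptor mRNAs when iron is scarce, which blocks ferritin translation and stabilises the receptor mRNA, while BACH1, a repressor that leaves DNA when it binds heme, holds down HMOX1 and the ferritin genes.

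Each library held 57481510 to 64497288 counts over 1 record per gene. The values below are counts scaled to a common library size (CPM), adjusted by the trimmed mean of M-values (TMM), with the standard deviation (SD) of n = 2 libraries. B cell markers were present, 9 of 10 in the table, with summed levels of 2846 to 2990 CPM in the rotated and 2822 to 2895 CPM in the static libraries. Within that sum MS4A1 was at 1240 and 1205 CPM in the rotated and 1017 and 1051 CPM in the static libraries (log2 fold change 0.24, edgeR adjusted p = 0.104), while CD79A, CD79B, PAX5, EBF1, CD40 and CD74 were lower in both rotated libraries, with log2 fold changes of -0.15 to -0.03. None of 10 T cell markers was listed in the table, which lists records above 1 CPM in at least 1 library. Of 10 erythroid markers only EPOR was listed, at 3.16 to 3.32 CPM in simulated microgravity and 3.47 to 4.00 CPM in static control, and HBA1, HBA2, HBB and ALAS2 were not. Of 10 macrophage and myeloid markers CD68 and ITGAM were listed, with a sum of 11.7 to 12.5 CPM and 11.9 to 13.6 CPM in the same order, and of 8 fibroblast markers COL1A1 and FBN1, with 47.1 to 63.0 CPM and 47.5 to 52.4 CPM. No listed marker passed the test in either direction.

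In simulated microgravity the transcripts of HMOX1, the inducible heme oxygenase, and of both ferritin chains were more abundant. HMOX1 was 1.79-fold, FTH1 1.28-fold and FTL 1.24-fold the static control level. The other 7 genes, which cover constitutive heme oxygenase, iron uptake, both iron regulatory proteins, BACH1, the last step of heme synthesis and a biliverdin reductase, did not pass the test. Thus 3 of 10 genes rose and 0 fell at a Benjamini-Hochberg false discovery rate (FDR) of 0.1 in edgeR's quasi-likelihood test. Across all 11415 genes the same test called 126 (1.1%) in either direction and 27 (0.237%) as raised, and 99 genes fell. The 10 genes were chosen with earlier results of these data known, so these shares do not test whether such genes rose more often. At an unadjusted p of 0.05 the members called were again those 3, beside 922 of all genes (8.08%). At the FDR of 0.1 DESeq2 and limma-voom also called 3 members, and edgeR's exact test called 2, without FTL. These tests called 107, 126 and 188 of all genes, in the same order. The median log2 fold change (simulated microgravity over static control) of the 10 genes was 0.07, beside 0.00067 over all genes, and 7 of the 10 were above 0. In bulk RNA, a change in the share of cells that express a gene and a change in RNA per cell cannot be told apart.

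**Figure D1:**
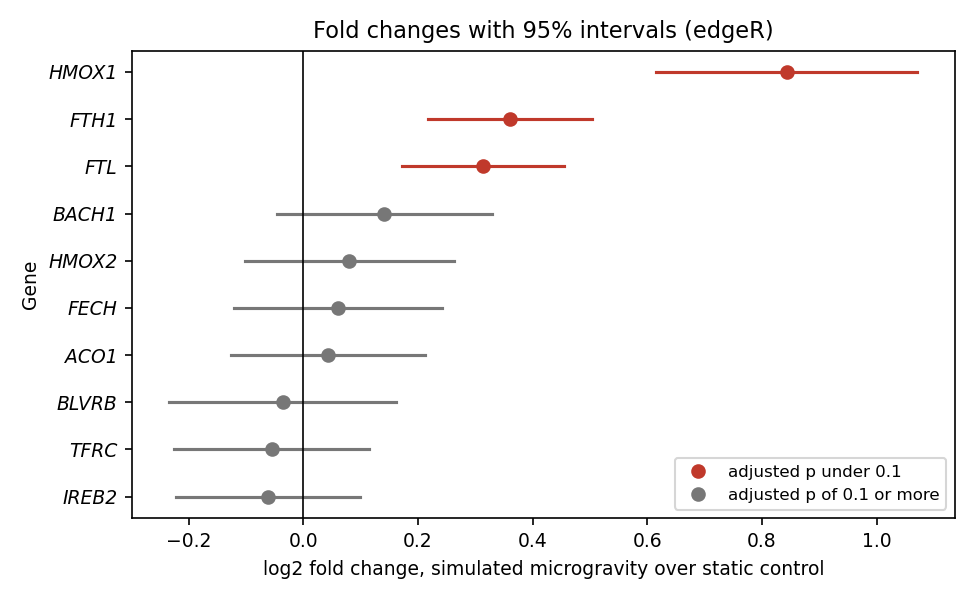
Log2 fold change of each of the 10 genes (horizontal axis, simulated microgravity over static control, edgeR) with its 95% confidence interval. HMOX1 at 0.84, FTH1 at 0.36 and FTL at 0.31 lie to the right of 0 with intervals that do not reach it, and the intervals of the other 7 genes include 0.

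HMOX1 (record NM_002133, hg19 chr22:35777060-35790207, plus strand) breaks down heme and is induced by heme and by oxidative stress in many cells. It had 1802 and 1602 counts in the simulated microgravity libraries and 1030 and 884 counts in the static controls. These are 31.0 and 25.0 CPM against 16.9 and 14.3 CPM, so both rotated libraries lay above both static ones, and the first rotated library was the highest of the 4. The group means were 28.0 ± 4.23 and 15.6 ± 1.89 CPM (SD, n = 2), a rise of 79.4%. The log2 fold change was 0.84 with a standard error (SE) of 0.11, a 95% confidence interval of 0.62 to 1.07 and an adjusted p of 0.00124 in edgeR. HMOX1 was 4th by fold among the 27 raised genes and 4th by p among all genes, while its abundance put it at rank 7075 of 11415. Most raised genes, 20 of 27, were higher in the second simulated microgravity library than in the first, and HMOX1 was among the 7 with the opposite order.

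HMOX2 (NM_001127204, chr16:4526341-4560348, plus strand) encodes the heme oxygenase that most cells make constitutively. It was at 42.1 and 48.4 CPM in simulated microgravity and at 41.6 and 44.0 CPM in static control, so the groups overlapped. Its log2 fold change was 0.08 with a 95% interval of -0.10 to 0.26 (edgeR adjusted p = 0.935), and its 4 transcript records, tested together with all records, lay between 0.08 and 0.10. Within a library, HMOX1 per kilobase of transcript was 0.793 and 0.555 of HMOX2 in simulated microgravity and 0.438 and 0.348 of it in static control. HMOX2 was the more abundant of the 2 genes in all 4 libraries on this scale, and the ratios of the groups did not overlap.

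BLVRB (NM_000713, chr19:40953691-40971725, minus strand) encodes a biliverdin reductase that also reduces flavins. Its levels of 17.7 and 15.7 CPM in simulated microgravity enclosed those of 17.3 and 17.0 CPM in static control, with a log2 fold change of -0.04 (95% interval -0.23 to 0.16, edgeR adjusted p = 0.987). FECH (NM_001012515, chr18:55212073-55253969, minus strand), the ferrochelatase that inserts iron into protoporphyrin to make heme, was at 26.0 and 28.6 CPM against 25.2 and 27.2 CPM. Its groups overlapped as well, and its log2 fold change was 0.06 (95% interval -0.12 to 0.24, edgeR adjusted p = 0.963).

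**Figure D2:**
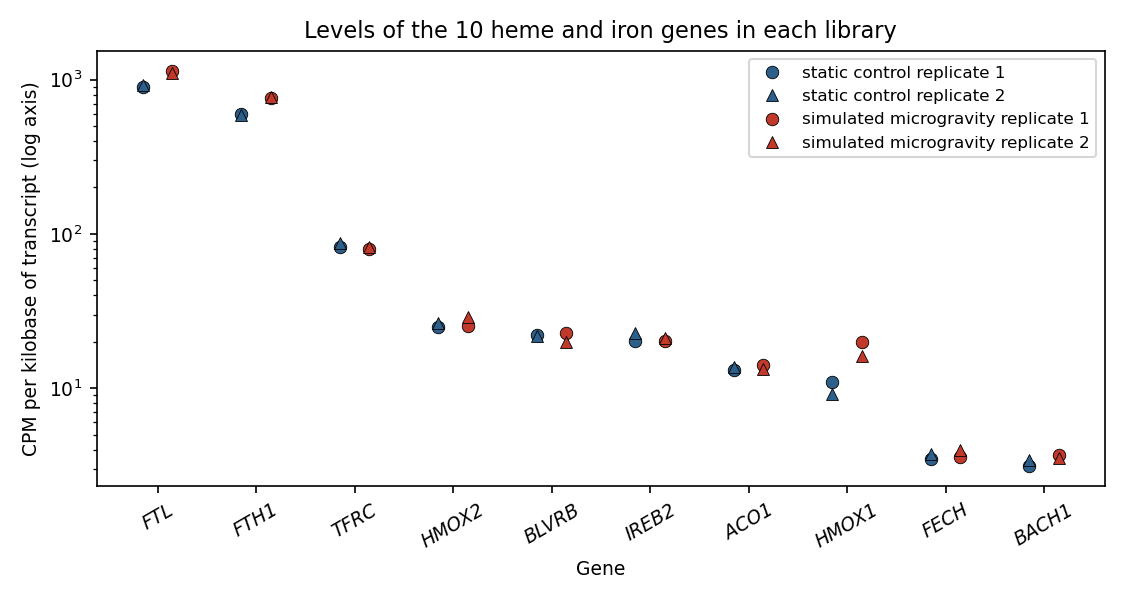
TMM-scaled CPM per kilobase of transcript (vertical axis, log scale) of each gene in the 2 simulated microgravity libraries (red) and the 2 static control libraries (blue), with each point 1 library, circles for replicate 1 and triangles for replicate 2. HMOX1, FTH1, FTL and BACH1 have both rotated libraries above both static ones, and the groups of the other 6 genes overlap.

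FTH1 (NM_002032, chr11:61731757-61735132, minus strand) encodes the ferritin heavy chain, which oxidises ferrous iron as it enters the shell. It had 53005 and 59522 counts in simulated microgravity and 44096 and 43959 counts in static control, or 911 and 929 CPM against 725 and 709 CPM. The groups were far apart relative to their spread, with means of 920 ± 12.3 and 717 ± 11.3 CPM (SD, n = 2) and a rise of 28.4%. The log2 fold change was 0.36 with an SE of 0.07, a 95% interval of 0.22 to 0.50 and an edgeR adjusted p of 0.0135.

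FTL (NM_000146, chr19:49468566-49470136, plus strand) encodes the light chain, which favours formation of the mineral core. It had 58019 and 61943 counts in simulated microgravity and 47325 and 49830 counts in the static controls, or 997 and 966 CPM against 778 and 803 CPM. Again the groups did not overlap, with means of 982 ± 22.0 and 791 ± 18.1 CPM (SD, n = 2) and a rise of 24.2%. The log2 fold change was 0.31 with an SE of 0.07, a 95% interval of 0.17 to 0.45 and an edgeR adjusted p of 0.0340. Both ferritin chains were among the most abundant of the 126 called genes, with FTL 7th and FTH1 8th. Their folds ranked low among the 27 raised genes, FTH1 22nd and FTL 25th, but their gains of 203 and 191 CPM ranked 2nd and 3rd, against a gain of 12.4 CPM for HMOX1.

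FTH1 and FTL moved by nearly the same amount, and the ratio of FTH1 to FTL per kilobase was 0.661 and 0.696 in the rotated libraries against 0.675 and 0.639 in the static ones, with the groups overlapping. The sum of both chains was 1909 and 1895 CPM in the rotated libraries and 1503 and 1512 CPM in the static ones. No test was run on these ratios and sums, since 2 libraries against 2 cannot give a two-sided exact permutation p below 0.333.

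Both ferritin calls rested on having both static control libraries. Without the first of them the log2 fold change was 0.38 for FTH1 and 0.29 for FTL, with edgeR adjusted p of 0.321 and 0.861. Without the second it was 0.34 for both genes, with adjusted p of 0.458 and 0.508. In these fits the remaining static library is assumed to vary like the rotated pair. Over the alternatives that used all 4 libraries, the adjusted p of FTH1 ran from 8.58e-05 (DESeq2) to 0.0700 (edgeR's exact test). That of FTL ran from 0.00136 (DESeq2) to 0.189 (edgeR's exact test), so the exact test also left FTL outside the threshold. HMOX1 passed in all 16 alternatives. Where all 4 libraries were used, its adjusted p ran from 1.69e-09 (edgeR's exact test) to 0.0103 (edgeR's quasi-likelihood test with a replicate block). Without the first rotated library its log2 fold change was 0.68, and without the second 0.99. There the remaining rotated library is assumed to vary like the static pair.

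**Figure D3:**
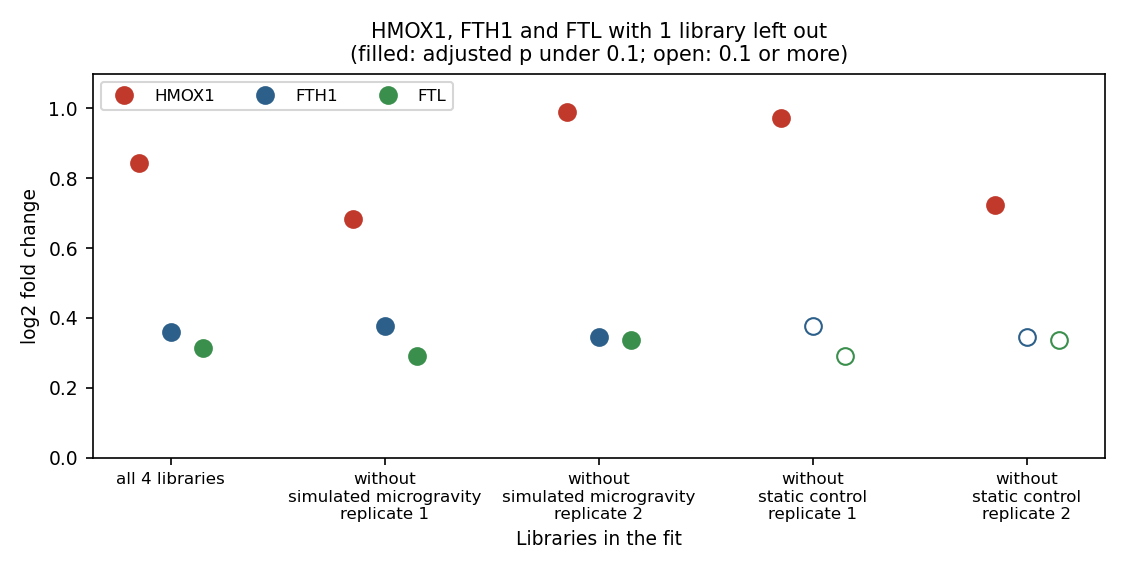
Log2 fold change (vertical axis, simulated microgravity over static control) of HMOX1, FTH1 and FTL with all libraries and with each of the 4 libraries left out in turn, with filled symbols for an edgeR adjusted p under 0.1. HMOX1 stays between 0.68 and 0.99 and filled throughout, while FTH1 and FTL keep their size but are open when either static control is left out.

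Ferritin genes have many processed copies, and the authors removed reads that aligned to several places. Of the 1154 possible 50-base words of the FTH1 transcript, 929 (80.5%) occurred in the annotated transcripts of 17 other genes, against 152 of 822 (18.5%) for FTL, shared with 2 other genes, and 0 for HMOX1, HMOX2, TFRC, BACH1 and BLVRB. Words were matched on both strands, so the FTH1 share can include words shared with BEST1, which overlaps FTH1 at the same place (below). The part due to copies elsewhere was not counted apart. The FTH1 count is uncertain as a level. The annotation names 25 FTH1 and 16 FTL pseudogenes, of which FTH1P3, named here after its values were seen, was in the table at 6.24 and 6.71 CPM in simulated microgravity and 6.82 and 6.34 CPM in static control. Its log2 fold change was -0.02 (SE 0.12, edgeR adjusted p = 0.991). Exons of BEST1, on the opposite strand, cover 880 of the 1203 bases of the FTH1 transcript (73.15%), and the strand setting of the counting, which decides whether reads in these bases can be told apart by gene, is not given in the sources used here. BEST1 was not listed in the table analysed here.

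TFRC (NM_003234, chr3:195776155-195808961, minus strand) takes up iron-loaded transferrin at the cell surface. It was at 401 and 414 CPM in simulated microgravity and at 411 and 436 CPM in static control, so the groups overlapped. The means were 407 ± 9.50 and 423 ± 17.7 CPM (SD, n = 2), with a log2 fold change of -0.06, a 95% interval of -0.23 to 0.11 and an edgeR adjusted p of 0.967. FTL per kilobase was 14.3 and 13.4 times TFRC in simulated microgravity and 10.9 and 10.6 times TFRC in static control. FTH1 per kilobase was 9.48 and 9.34 times TFRC against 7.35 and 6.78 times, so for both chains the ratio to the receptor was higher in each rotated library than in each static one.

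**Figure D4:**
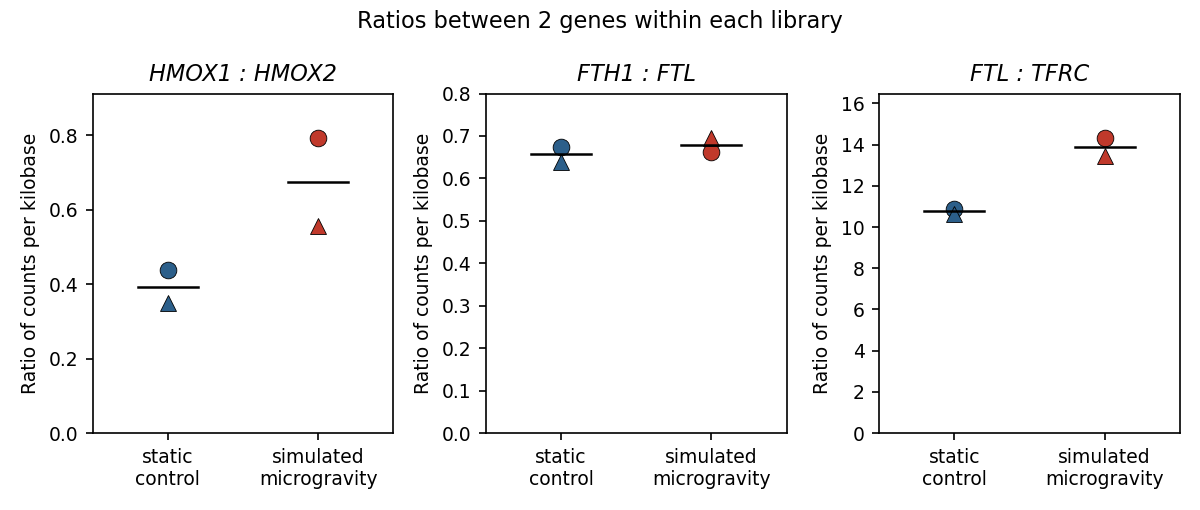
Ratios between genes within each library, per kilobase of transcript (vertical axes), for HMOX1 to HMOX2, FTH1 to FTL and FTL to TFRC, with each point 1 library (circles replicate 1, triangles replicate 2) and each line the group mean. HMOX1 to HMOX2 and FTL to TFRC are higher in both simulated microgravity libraries, and FTH1 to FTL overlaps between the groups.

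The iron-responsive elements are shown because they sit at opposite ends of the mRNAs of FTL and TFRC, a storage gene that rose and an uptake gene that did not pass the test. Whether the elements bear on these RNA levels was not tested. The UTRs of annotated protein-coding transcripts were searched on the transcript strand for the loop letters CAGTGN with a C 6 bases before them. The loop also had to have 5 paired bases on both sides (G-U pairs allowed). Sites are given for 8 genes, leaving out HMOX1 and FTH1. Such an element was found once in the 5′ UTR of FTL and 4 times in the 3′ UTR of TFRC, and in 18 of 19080 5′ UTRs (0.0943%) and 121 of 19452 3′ UTRs (0.622%) in the GRCh37 annotation. The loop starts at base 39 of the 199-base 5′ UTR of FTL and at bases 950, 1354, 1419 and 1466 of the 2661-base 3′ UTR of TFRC. Capitals mark the 6-base loop. The elements lie, in the order printed, at chr19:49468592-49468621 (plus strand) and at chr3:195777849-195777878, chr3:195777445-195777474, chr3:195777380-195777409 and chr3:195777333-195777362 (minus strand).
FTL, 5′ UTR: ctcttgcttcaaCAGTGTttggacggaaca
TFRC, 3′ UTR, element 1: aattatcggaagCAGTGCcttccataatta
TFRC, 3′ UTR, element 2: cattatcgggagCAGTGTcttccataatgt
TFRC, 3′ UTR, element 3: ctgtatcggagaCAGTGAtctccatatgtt
TFRC, 3′ UTR, element 4: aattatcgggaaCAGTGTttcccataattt

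ACO1 and IREB2 encode the iron regulatory proteins that bind these hairpins, and ACO1 also works as a cytosolic aconitase when it holds an iron-sulfur cluster. ACO1 (NM_002197, chr9:32384601-32450832, plus strand) was at 49.8 and 46.8 CPM in simulated microgravity and 45.8 and 47.9 CPM in static control, with a log2 fold change of 0.04 (95% interval -0.13 to 0.21, edgeR adjusted p = 0.980). IREB2 (NM_004136, chr15:78730518-78793798, plus strand) was at 128 and 134 CPM against 128 and 145 CPM, with a log2 fold change of -0.06 (95% interval -0.22 to 0.10, edgeR adjusted p = 0.948). Both pairs of groups overlapped.

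BACH1 (NM_206866, chr21:30671737-30718469, plus strand) was at 20.6 and 19.7 CPM in simulated microgravity and at 17.5 and 19.0 CPM in static control. Its groups did not overlap, but the log2 fold change of 0.14 (SE 0.09, 95% interval -0.05 to 0.33) had an edgeR adjusted p of 0.801. Its 2 other records were at 0.14 and 0.04 when all records were tested together. With HMOX1, FTH1 and FTL, BACH1 made 4 of 10 genes whose rotated libraries both lay above both static ones, a pattern that 2039 of 11415 genes (17.9%) showed, and 0 of the 10 showed the reverse, which 2063 genes (18.1%) did.

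RefSeq promoter windows, from 250 bases before to 50 bases after a start site (GRCh38.p14), were at hand for 8 of the 10 genes, without HMOX1 and FTH1. The antioxidant response element letters TGACNNNGC and TGAGNNNGC, searched on both strands, were both found in the window of FECH and in no window of the other 7 genes, beside 13.3% and 18.3% of 34796 windows. These shares are per window, and some genes have several windows. Sites farther from a start than the windows reach were not searched. The loop letters with the C 6 bases before them, on the transcript strand and without the pairing, were in windows of FTL and HMOX2 and in 10.1% of all windows. In FTL the loop starts at base 39 after the start site, the 5′ UTR element printed above. In HMOX2 the loops start at -20 and -77, before the start site of their window.

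Per kilobase of transcript, the mean static control level ran from FTL at 908 ± 20.8 and FTH1 at 596 ± 9.42 CPM (SD, n = 2) through TFRC at 84.4 ± 3.53 CPM to a middle group of HMOX2 (25.6 ± 1.04), BLVRB (21.9 ± 0.312) and IREB2 (21.6 ± 1.85). BLVRB and IREB2 did not differ beyond their spread. ACO1 (13.4 ± 0.432) and HMOX1 (10.0 ± 1.22) followed, and FECH (3.62 ± 0.196) and BACH1 (3.27 ± 0.197) were lowest. FECH lay above BACH1 in both static libraries, and the 2 genes overlapped in simulated microgravity. In simulated microgravity FTL was at 1127 ± 25.2 and FTH1 at 765 ± 10.2 CPM per kilobase. HMOX1 was at 18.0 ± 2.72 CPM per kilobase there. Lengths are exon bases inside the counted record, and the place of ACO1 depends on this choice, with 3508 bases used of the 7443 of its annotated transcript. These orders compare genes whose counts differ in how much of the transcript can be uniquely aligned.

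Beyond the 10 genes, 72 other genes of heme and iron metabolism were listed, and 62 were in the table. None passed an FDR of 0.1 in edgeR's quasi-likelihood test, in DESeq2, in edgeR's exact test or in limma-voom, and 4 had an unadjusted p under 0.05 in the quasi-likelihood test, where 8.08% of all genes did. The counts of unadjusted p given for each list are read against the same share. Their median log2 fold change was 0.03, with a range of -0.26 to 0.28, and 40 of 62 were above 0. The counts by list, which include the 10 genes where they belong, follow.

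Of 8 heme synthesis genes, all in the table, 0 passed, with a median log2 fold change of 0.07 and 1 unadjusted p under 0.05. UROS, which closes the tetrapyrrole ring, was at -0.18, and CPOX and ALAD, enzymes of a late and an early step, were both at 0.13 (edgeR adjusted p 0.583 to 0.823). In heme breakdown and transport 9 of 11 genes were in the table, HMOX1 rose and 0 fell, with a median of 0.01. The heme and folate transporter SLC46A1 was at -0.17, the heme exporter FLVCR1 at -0.04 and the porphyrin transporter ABCB6 at 0.03 (edgeR adjusted p 0.734 to 0.990).

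Of 14 genes for iron import and export 8 were in the table and 0 passed, with a median of 0.03 and 1 unadjusted p under 0.05. That was SLC39A14, a zinc and iron importer, at 75.6 and 90.0 CPM in simulated microgravity and 66.8 and 69.5 CPM in static control. Its groups did not overlap, and its log2 fold change was 0.28 with an edgeR adjusted p of 0.215. The study, which tested transcript records with another edgeR version, counted SLC39A14 among its upregulated genes. The metalloreductases STEAP3 and STEAP2 were at 0.09 and 0.08. Among 5 measured of 6 genes for iron storage and ferritinophagy, FTH1 and FTL rose and 0 fell, with a median of 0.06. NCOA4, the receptor that carries ferritin to autophagosomes, was at 0.06 (154 and 161 CPM against 148 and 155 CPM, edgeR adjusted p = 0.946), and the iron chaperones PCBP2 and PCBP1 were at -0.03 and 0.0048.

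The 6 genes of the iron regulatory proteins and their degradation had 0 calls, a median of 0.04 and 0 unadjusted p under 0.05. SKP1 and CUL1, parts of the ubiquitin ligase that degrades IREB2, were at 0.05 and 0.04, and the ubiquitin ligase HERC2 was at 0.03. Of 10 genes for BACH1 and its partners 9 were in the table and 0 passed, with a median of 0.14 and 2 unadjusted p under 0.05. NFE2L2, the activator that competes with BACH1 for its sites, was at 52.8 and 60.5 CPM in simulated microgravity and 50.9 and 50.5 CPM in static control, with a log2 fold change of 0.16 and an edgeR adjusted p of 0.693. NFE2L1, a related factor, was at 160 and 199 CPM against 158 and 155 CPM (log2 fold change 0.20, edgeR adjusted p = 0.562), and HECW2 had a log2 fold change of 0.20 (edgeR adjusted p = 0.520).

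These last results depended on single rotated libraries. Without the first simulated microgravity library the log2 fold change was 0.35 for NFE2L1, 0.26 for NFE2L2 and 0.40 for SLC39A14. Without the second it was 0.32 for HECW2. In these fits the remaining rotated library is assumed to vary like the static pair. Each of these 4 genes passed in 1 of its 16 alternatives, the fit named here, and in no alternative that used all 4 libraries.

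All 18 genes of mitochondrial iron and iron-sulfur cluster assembly were in the table, 0 passed and the median was -0.02. IBA57 was at -0.21, ISCA2 at 0.15 and HSCB at -0.13. All 9 genes of cytosolic iron-sulfur cluster assembly were in the table as well, with 0 calls and a median of 0.01. MMS19 was at -0.12, NARFL at 0.12 and FAM96A at 0.10. Neither list had an unadjusted p under 0.05.

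**Figure D5:**
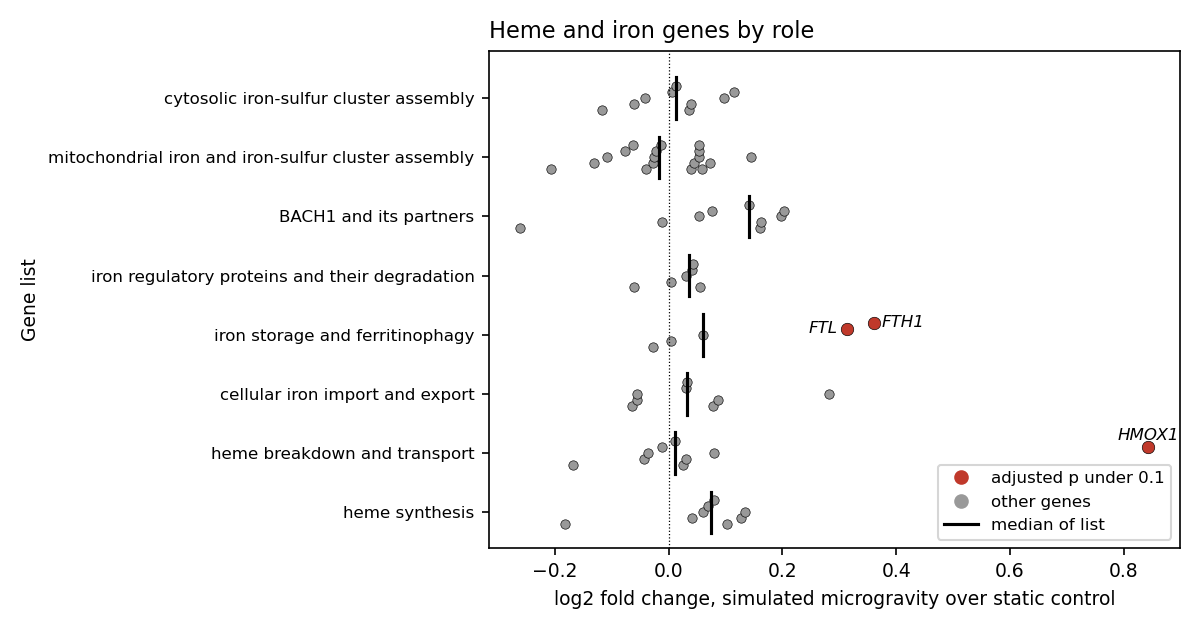
Log2 fold change (horizontal axis, simulated microgravity over static control) of every measured gene of the heme and iron lists (rows), with each point 1 gene, each bar the list's median and called genes in red and named. Only HMOX1, FTH1 and FTL are called, and the list medians lie between -0.02 and 0.14.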

How the data were processed

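RNA of 2 simulated microgravity and 2 static control libraries was compared. The authors aligned reads with TopHat2 to hg19, removed reads aligning to several places and deposited raw counts per RefSeq transcript record, beside CPM (counts scaled to library size) that the authors computed per library. The submitters' processing notes give TopHat2 2.0.8, while the study's methods name another version. Read length and strand setting are not given in the sources used here. The table lists 22375 records, each above 1 CPM in 1 or more libraries. The listed records held 112609031 to 126368530 counts per library. Record starts were 0-based and are given 1-based. Columns of the authors' own comparison (log2 fold change, mean log2 CPM, p-value, FDR) were not used.

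From the deposited counts, 1 record per gene symbol was kept (highest mean count; 4944 of 11415 symbols had several), filtered with filterByExpr (0 genes removed), scaled by TMM and fitted with edgeR 4.0.16 (R 4.3.3) by the quasi-likelihood test, two-sided, on the 4 libraries with no covariate. FDR was 0.1 (Benjamini-Hochberg over all genes). The SE is the log2 fold change over the square root of F, and intervals are 95%. Counting error is smallest for abundant genes such as the ferritins and can match the spread between libraries in genes of low count (biological coefficient of variation 6.77%, replicate correlation of log2 CPM 0.996 and 0.997). The code was tested on simulated data. Transcript lengths, shared words and UTR elements came from the GENCODE annotation lifted to GRCh37, promoter windows from RefSeq (GRCh38.p14). Alternatives were other scalings, DESeq2 1.42.0, limma-voom 3.58.1, edgeR's exact test and robust fit, no filter, a mean count of at least 500, all records, the record listed first, a replicate block, an FDR of 0.05 and each library left out. Named genes are the 10 members, any other listed gene past the FDR and the 3 others with the smallest p in each list. Members and lists were chosen with earlier results of these data known.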

Additional observations from a re-analysis of the deposited data

How the results depend on the processing

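The 34 named genes were examined under 16 alternatives. The fit without a filter repeated the main fit, since the filter removed 0 genes. The FDR of 0.05 kept the main fit and moved only the threshold, so neither could alter a fold change. Of the single gene values, 522 kept their direction and side of the threshold, 11 changed sign, 4 newly passed and 5 no longer passed. With 1 library left out, 1 to 3 of the 10 genes and 0 to 3 of the 62 other pathway genes passed, and 70 to 877 genes in all against 126, with 877 without the first simulated microgravity library, 212 without the second, 70 without the first static control and 110 without the second. The other settings gave 85 genes in all (a mean count of at least 500) to 188 (edgeR's exact test). The exact test called 2 of the 10 genes. Sign changes occurred only with a library left out and only in genes that did not pass. Across the 4 such fits the log2 fold change ran from -0.025 to 0.18 for HMOX2, -0.011 to 0.13 for FECH, -0.12 to 0.049 for BLVRB, -0.00099 to 0.087 for ACO1, -0.15 to 0.028 for IREB2, -0.10 to 0.016 for FLVCR1, -0.21 to 0.24 for ABCB6, -0.029 to 0.11 for CUL1, -0.070 to 0.13 for HERC2 and -0.024 to 0.034 for PCBP1. The causes were not tested. The libraries share only a replicate number: deviations of same-numbered libraries correlated at 0.0878. With the replicate block 3 of the 10 genes, 0 pathway genes and 96 genes in all passed.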
